A study of Mus musculus with 12 samples.

Results

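The 10 genes described here make up the core of transforming growth factor beta (TGF-beta) signalling: the ligands Tgfb1, Tgfb2 and Tgfb3, the latent binders Ltbp1 and Ltbp3, the receptors Tgfbr1, Tgfbr2 and Tgfbr3, the signal carrier Smad3 and the inhibitory Smad7. They were chosen by name, by matching the gene identifiers of the count tables to mouse symbols, and all 10 were found among the 49315 genes counted. RNA was sequenced from 12 heart libraries of wild-type (WT) female mice, labelled C57BL/6J in the treatment text and C57BL/6 in the strain field, with 3 libraries in each of 4 groups. Females were fed for 15 weeks on one of a pair of diets: in the control diet fat gave 10% of the calories, and in the Western diet fat gave 45% and sucrose 17%. On each diet some were then bred and their hearts taken 1 day after delivery (postpartum), and some stayed on the diet unbred for as long (nonpregnant), all hearts being taken at an age of 27 to 29 weeks. The stated purpose was to study whether metabolic syndrome, the cluster of obesity and insulin resistance that the Western diet was used to bring about, leads to pathological remodelling of the heart in pregnancy.

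Cells secrete each TGF-beta ligand in a latent complex with its own propeptide, and latent TGF-beta binding proteins tether that complex to the extracellular matrix until integrins, proteases or thrombospondin release the ligand. The free ligand binds the type II receptor Tgfbr2, which phosphorylates the type I receptor Tgfbr1, and the coreceptor betaglycan, encoded by Tgfbr3, presents ligand to them. Smad3 then carries the signal to the nucleus, and Smad7, itself induced by the pathway, shuts the receptors off. In the heart the pathway is known for driving fibroblasts to lay down collagen.

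Upstream sequences are shown for Ltbp1, the only one of the 10 genes with a call below, which has a pair of annotated start sites, and for Tgfb1 and Tgfb2, ligands whose values differed in pattern. They are the 250 bases before each start in the RefSeq promoter table (GRCm38.p6), which matched 7 of the 10 genes with 9 windows, all but Tgfb3, Tgfbr3 and Smad7. Each is written 5′ to 3′ on the strand of its gene. The windows are at chr17:75005279-75005528 (+ strand) for the first and chr17:75178531-75178780 (+ strand) for the second start of Ltbp1, at chr7:25686752-25687001 (+ strand) for Tgfb1 and at chr1:186705990-186706239 (- strand) for Tgfb2. Capitals mark TGACGTCA, the cAMP response element, in the first Ltbp1 window, GGGCGG, the GC box, on either strand in Tgfb1, and TATAAA, the TATA box, in Tgfb2.
Ltbp1 start 1: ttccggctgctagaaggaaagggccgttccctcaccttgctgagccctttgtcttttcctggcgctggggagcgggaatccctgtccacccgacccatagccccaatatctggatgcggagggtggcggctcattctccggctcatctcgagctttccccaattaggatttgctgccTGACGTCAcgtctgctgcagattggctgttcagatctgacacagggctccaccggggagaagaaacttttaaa
Ltbp1 start 2: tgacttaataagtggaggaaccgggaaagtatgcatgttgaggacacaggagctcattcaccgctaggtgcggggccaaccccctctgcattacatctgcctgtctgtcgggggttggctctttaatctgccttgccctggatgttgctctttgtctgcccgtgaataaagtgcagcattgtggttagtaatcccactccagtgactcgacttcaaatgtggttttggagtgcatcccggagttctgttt
Tgfb1: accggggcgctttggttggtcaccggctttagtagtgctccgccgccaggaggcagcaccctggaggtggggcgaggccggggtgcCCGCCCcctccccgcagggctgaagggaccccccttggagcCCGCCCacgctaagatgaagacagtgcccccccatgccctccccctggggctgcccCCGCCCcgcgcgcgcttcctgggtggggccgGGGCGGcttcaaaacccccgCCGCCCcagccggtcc
Tgfb2: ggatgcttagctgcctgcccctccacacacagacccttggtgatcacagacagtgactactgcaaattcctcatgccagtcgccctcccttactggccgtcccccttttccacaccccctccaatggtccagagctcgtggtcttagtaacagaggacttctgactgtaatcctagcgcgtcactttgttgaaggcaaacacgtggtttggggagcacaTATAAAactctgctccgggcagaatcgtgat
The second Ltbp1 window lies inside the Ltbp1 gene and overlaps no annotated exon, and the deposited count of Ltbp1 sums transcripts from both starts. The first Ltbp1 window and the Tgfb1 window overlap no exon, and the Tgfb2 window overlaps an exon of Gm29491, a gene on the opposite strand.

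Of the 6 motifs searched on both strands, TGACGTCA was in 1.55% of the 32851 windows of the table, TGACTCA (the AP-1 site) in 4.46%, GTCTAGAC (the Smad palindrome) in 0.167%, GGGCGG in 32.7%, CCAAT in 33.8% and TATAAA in 12.4%. The cAMP response element of Ltbp1 began 73 bases before its first start, and its second window held none of the 6 motifs. The Tgfb1 window held 5 GC boxes, with 75.2% G or C against a median of 52.4% over all windows, and no TATA box. The Tgfb2 window held a TATA box that began 31 bases before the start, 1 CCAAT and no GC box. No window of the 7 genes held TGACTCA or GTCTAGAC. Such matches describe letters only and say nothing of binding in these hearts.

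Total counts per library were 22754591 to 29492416, and a gene without counts could lie at up to 0.102 to 0.132 CPM (counts relative to the scaled library size), for counting error only. The 10 cardiomyocyte markers fixed for the tissue check summed to 79836 to 94953 CPM, none of them at 0, so the libraries carry the transcripts of heart muscle. Postpartum replicate 3 on the control diet held transcripts of fat tissue: the brown fat gene Ucp1 had 73.04 CPM there and no more than 0.544 CPM in the other 11 libraries. Nothing in the labels states separate animals for the 3 libraries of a group, so p-values measure the spread between these libraries only. The title numbers of the postpartum libraries all come before those of the nonpregnant ones, and whatever goes with that order cannot be told apart from pregnancy.

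All 10 genes were well counted, at 212 to 1815 reads per library, and all 10 passed the filter on low counts that left 15476 genes. Compared per length, in the unit TPM (counts over exonic length, scaled to the same sum in each library), the latent binder Ltbp3 had the highest mean over the 12 libraries (19.1 TPM), followed by Tgfbr2 (16.8 TPM), Tgfbr3 (15.5 TPM), Tgfb1 (11.4 TPM) and Ltbp1 (10.6 TPM). Smad7 (9.68 TPM), Tgfb3 (8.94 TPM), Smad3 (7.73 TPM), Tgfbr1 (6.41 TPM) and Tgfb2 (4.54 TPM) followed. In control diet nonpregnant hearts the ranges of neighbours in this order overlapped for Tgfbr2 and Tgfbr3, Tgfb1 and Ltbp1, Ltbp1 and Smad7, Smad7 and Tgfb3, and Tgfb3 and Smad3, so these neighbours are not ordered beyond their spread. Tgfbr3 was above Tgfb1, and Smad3 above Tgfbr1, in 12 of 12 libraries, Tgfbr1 was above Tgfb2 in 11, and Ltbp3 was above Tgfbr2 in 9. The type I receptor Tgfbr1 was thus far less abundant per length than the type II receptor Tgfbr2, at a control diet nonpregnant level of 6.32 ± 0.654 against 16.3 ± 0.421 TPM (SD, n = 3).

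**Figure D1:**
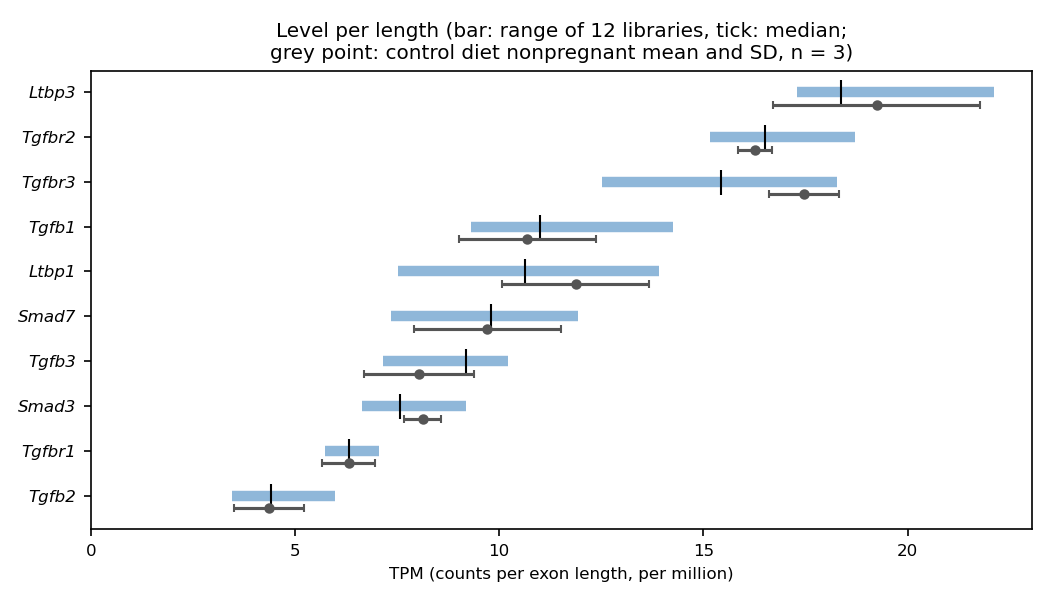
Level of each gene in TPM (horizontal axis), with genes on the vertical axis in order of their mean over 12 libraries; bars span the lowest to the highest library, ticks mark the median, and grey points give the mean and SD of the 3 control diet nonpregnant libraries. Ltbp3 at 17.3 to 22.1 TPM lies at the top and Tgfb2 at 3.46 to 5.99 TPM at the bottom.

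The genes varied over the 12 libraries about as much as others, with a median coefficient of variation of 11.2% against 11.5% over all genes tested. Tgfb2 had the highest of the 10 (21.4%, its highest library 1.92 times its lowest), and Tgfbr1 (5.31%) and Ltbp3 (5.35%) had the lowest. Ltbp3, Tgfb2 and Tgfb3 each share exonic bases with a gene on the opposite strand, and Tgfbr3 with one on its own strand. Their counts could include reads of that gene. The strand setting of the counting, which bears on the opposite-strand partners only, is not given in the sources used here. The partners of Tgfb2 (Gm29491), Tgfb3 (Gm37804) and Tgfbr3 (Gm43422) had 0 to 8 reads in every library.

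**Figure D2:**
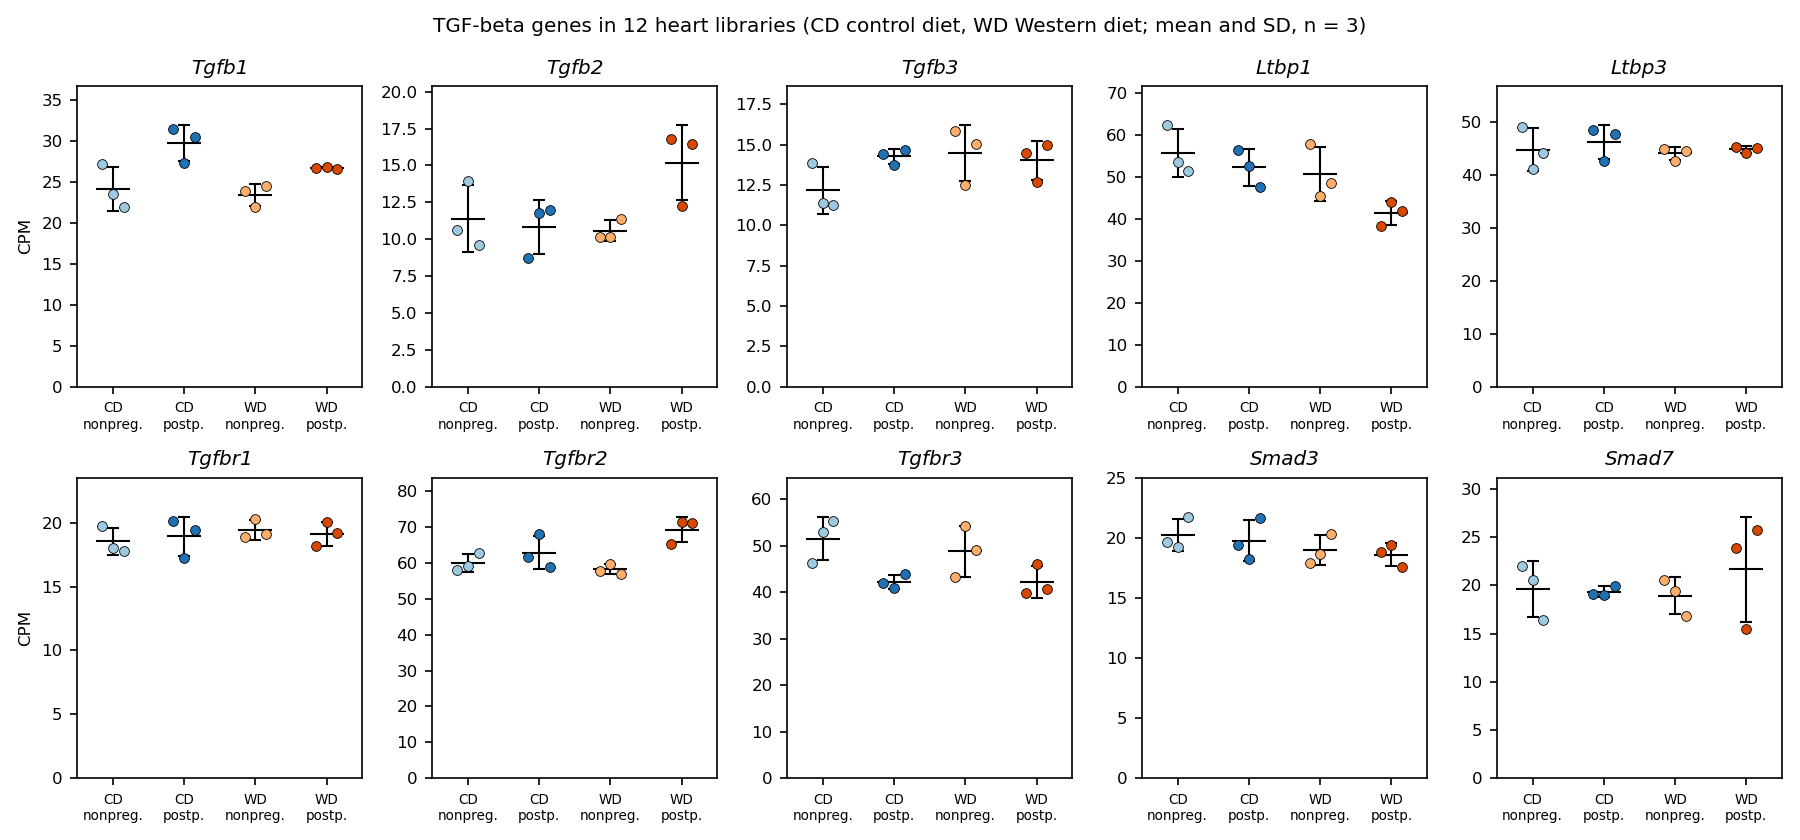
CPM (vertical axis, from 0) of the 10 genes in each of the 12 libraries, by group (CD control diet, WD Western diet; 3 points a group, horizontal line mean, bars SD). Ltbp1 is lowest in the 3 Western diet postpartum hearts (38.3 to 44.1 CPM), and the Tgfb1 points of postpartum hearts lie above those of nonpregnant hearts on the same diet.

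Differences between groups were small, with 1 call among the 80 values of 10 genes in 8 comparisons. That call was Ltbp1, lower in Western diet postpartum than in control diet nonpregnant hearts, the comparison with the most calls over all genes. There 1 of 10 was called against 2.62% of all genes tested, and 3 of 10 (Ltbp1, Tgfbr2 and Tgfbr3) did not overlap between the groups against 20.2% of all genes. After delivery on the control diet none of the 10 was called (0.239% of all genes were) and 2 did not overlap (17.1% of all genes). On the Western diet none was called (0.588%) and 4 did not overlap (19.6%). Between the diets none was called in postpartum (0.879%) or nonpregnant hearts (0.0582%), with 3 (19.1%) and 0 (14.8%) of the 10 not overlapping. None was called in the postpartum effect averaged over diets (1.78% of all genes) or in the diet effect averaged over pregnancy states (1.38%).

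Nor was any of the 10 called in the interaction, which tests whether the postpartum effect differed between the diets; edgeR called 0% of all genes there. At an unadjusted p under 0.05 that interaction had 1390 of all genes and 1 of the 10, Tgfb2, while DESeq2 called 43 and limma-voom 0 of all genes. In the other comparisons the genes with an unadjusted p under 0.05 numbered 2 of the 10 after delivery on the control diet (1930 of the 15476 genes tested), 5 on the Western diet (2281), 3 between diets postpartum (2259) and 1 between diets nonpregnant (1483). They numbered 4 in Western diet postpartum against control diet nonpregnant hearts (2811 of all genes), 4 in the averaged postpartum effect (2721) and 1 in the averaged diet effect (2210). The median log2 fold change of the 10 was 0.06 in the averaged postpartum effect, against -0.001 over all genes, with 7 of 10 positive.

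**Figure D3:**
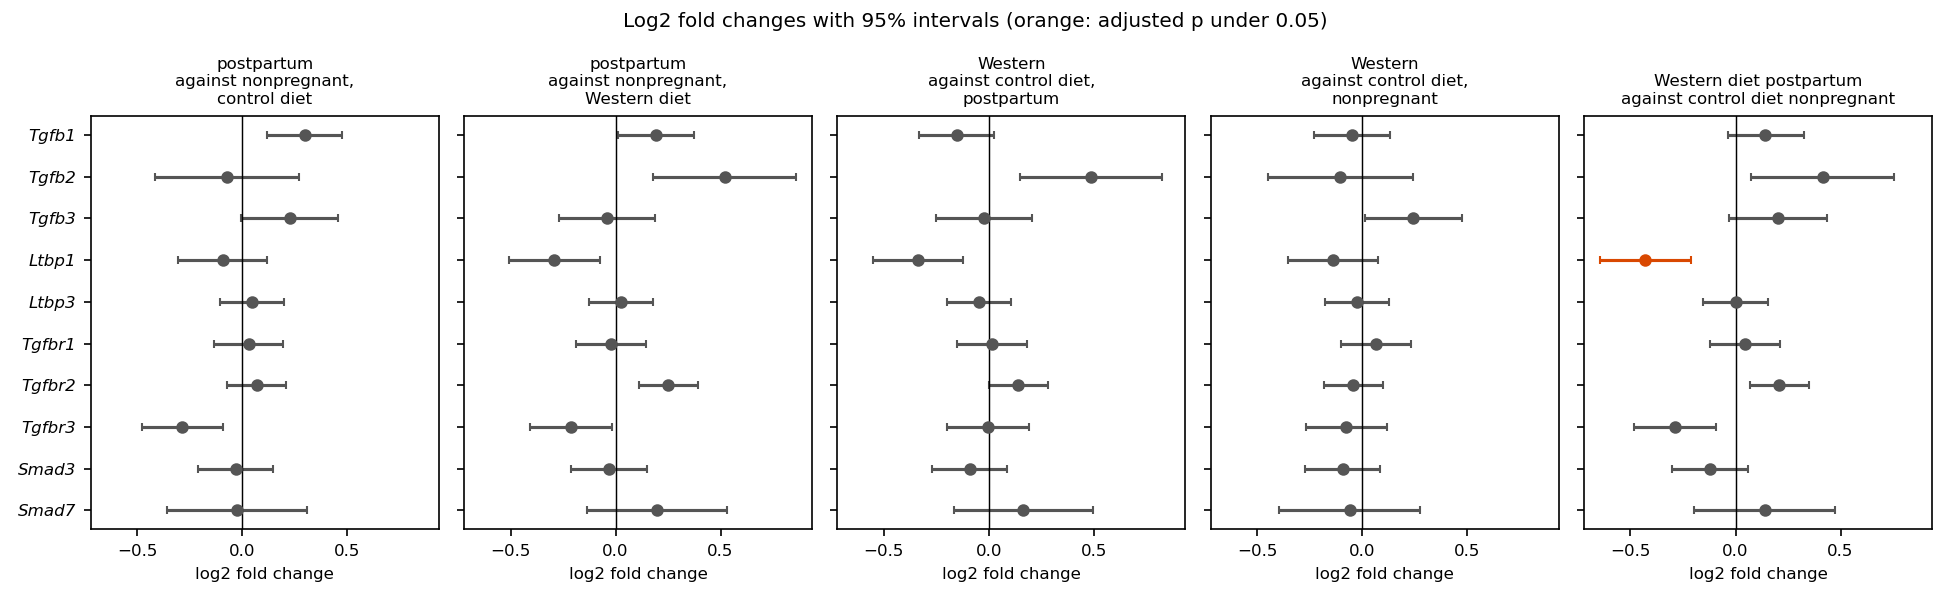
Log2 fold changes (horizontal axis) of the 10 genes (vertical axis) in the 5 comparisons of a pair of groups, with 95% intervals; orange marks an adjusted p under 0.05. Only Ltbp1 in Western diet postpartum against control diet nonpregnant hearts is orange, at -0.43, and the intervals of Tgfbr1, Ltbp3, Smad3 and Smad7 include 0 in all 5 panels.

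Among the ligands, Tgfb1, the main isoform of injured and fibrotic tissue (ENSMUSG00000002603, chr7:25687002-25705077, + strand), was higher in each postpartum heart than in each nonpregnant heart on the same diet. It was called on neither diet, and only in the average over diets did it come near the threshold. On the control diet it stood at 27.1, 23.5 and 21.9 CPM in nonpregnant and at 31.4, 27.3 and 30.5 CPM in postpartum hearts. On the Western diet it stood at 23.9, 21.9 and 24.5 CPM in nonpregnant and at 26.7, 26.8 and 26.6 CPM in postpartum hearts. Neither pair of groups overlapped, though on the control diet the gap was small, nonpregnant replicate 1 lying close under postpartum replicate 2. The postpartum effect was 0.30 on the control diet (log2 fold change, SE 0.08, adjusted p = 0.173 by edgeR), 0.19 on the Western diet (SE 0.08, adjusted p = 0.314) and 0.24 averaged over diets (SE 0.06, 95% interval 0.117 to 0.371, adjusted p = 0.0555). The averaged value passed the threshold under 6 of 20 alternatives, among them leaving out control diet nonpregnant replicate 1 (adjusted p = 0.0152) or control diet postpartum replicate 2 (0.0475). In those fits edgeR called 489 and 217 of all genes in the averaged effect, against 276 with all libraries. Without the library that held fat transcripts the averaged value of Tgfb1 was 0.24 (adjusted p = 0.117), in a fit that called 93 of all genes.

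Summed CPM of the 12 macrophage and monocyte markers also ran higher after delivery on the control diet, at 365.9 to 404.7 against 264.6 to 338.8, and at 339.3 to 389.5 against 282.3 to 364.2 on the Western diet. Those of the 9 platelet markers, of which 5 passed the filter, were 19.6 to 21.0 in postpartum against 13.3 to 14.5 in nonpregnant hearts on the control diet, and 18.2 to 20.1 against 13.1 to 16.1 on the Western diet, with no marker at 0 in a whole group. Macrophages and platelets are known sources of Tgfb1, and the part of these cells in its values was not tested. In bulk tissue, fewer or more cells of a type and less or more RNA per cell cannot be told apart.

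Tgfb2, the isoform best known from heart valve and cushion development (ENSMUSG00000039239, chr1:186622792-186705989, - strand), showed another pattern, with its highest values in Western diet postpartum hearts. There it stood at 16.8, 12.3 and 16.5 CPM, against 10.2, 10.2 and 11.4 CPM in Western diet nonpregnant hearts. On the control diet it stood at 10.6, 13.9 and 9.61 CPM in nonpregnant and at 8.74, 11.8 and 12.01 CPM in postpartum hearts. Western diet postpartum replicates 1 and 3 were above every other library and replicate 2 was not, being below 1 control diet nonpregnant heart. The difference from Western diet nonpregnant hearts was 0.52 (SE 0.16, 95% interval 0.180 to 0.860, adjusted p = 0.153) and that from control diet postpartum hearts 0.49 (SE 0.16, adjusted p = 0.161), both without overlap and both short of the threshold. With replicate 2 left out both passed it, at adjusted p values of 0.0415 and 0.0493. Calls over all genes rose in that fit too, from 91 to 472 and from 136 to 490. The postpartum effect of Tgfb2 differed between the diets by 0.59 (SE 0.22, unadjusted p = 0.0199, adjusted p = 0.476).

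Tgfb3, the third isoform (ENSMUSG00000021253, chr12:86056744-86079041, - strand), ranged from 11.3 CPM to 15.9 CPM over the 12 libraries, and its groups overlapped in each of the 5 comparisons of a pair of groups. It stood at 12.2 ± 1.47 CPM (SD, n = 3) in hearts of nonpregnant females on the control diet and at 14.3 ± 0.473, 14.5 ± 1.74 and 14.1 ± 1.21 CPM in control diet postpartum, Western diet nonpregnant and Western diet postpartum hearts. Control diet nonpregnant hearts thus had the lowest mean of the 4 groups. The largest of its differences, Western against control diet in nonpregnant hearts, was 0.24 (SE 0.11, 95% interval 0.012 to 0.475, adjusted p = 0.504).

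Of the latent binders, Ltbp1 (ENSMUSG00000001870, chr17:75005568-75392512, + strand), which anchors latent TGF-beta in the matrix, fell in Western diet postpartum hearts relative to control diet nonpregnant hearts. It stood at 38.3, 44.1 and 42.0 CPM in Western diet postpartum hearts and at 62.4, 53.5 and 51.4 CPM in control diet nonpregnant hearts. The intermediate groups stood at 56.5, 52.7 and 47.8 CPM (control diet postpartum) and 58.0, 45.6 and 48.7 CPM (Western diet nonpregnant). Every Western diet postpartum heart was below every heart of the other 3 groups. The log2 fold change was -0.43 (SE 0.10, 95% interval -0.646 to -0.214, adjusted p = 0.0399 by edgeR), or 0.742 of the control diet nonpregnant level. This comparison sets diet and pregnancy together against neither, so it does not separate them.

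The steps that led there were each smaller and not called: -0.09 for delivery on the control diet (SE 0.10, adjusted p = 0.759), -0.14 for the Western diet in nonpregnant hearts (SE 0.10, adjusted p = 0.716), -0.29 for delivery on the Western diet (SE 0.10, adjusted p = 0.198) and -0.34 for the Western diet in postpartum hearts (SE 0.10, adjusted p = 0.128). The interaction of Ltbp1 was -0.20 (SE 0.14, 95% interval -0.501 to 0.106, adjusted p = 0.697) and was not called. The call held under 12 of 21 other settings of the processing, with adjusted p between 1.17e-05 and 0.174 and a log2 fold change of -0.49 to -0.34, negative in all 21. It was lost when any 1 of 7 libraries was left out (control diet nonpregnant replicate 1, 2 or 3, Western diet postpartum replicate 1 or 3, Western diet nonpregnant replicate 3, or postpartum replicate 2 on the control diet), with adjusted p of 0.0576 to 0.174. It was also lost in a fit of only the 2 groups compared (adjusted p = 0.0643). With any 1 of those 7 libraries left out edgeR called 87 to 483 of all genes there, and 136 in the fit of 2 groups. With all libraries it called 406.

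Ltbp3, the other latent binder among the 10 (ENSMUSG00000024940, chr19:5740904-5758532, + strand), lay within 41.1 to 49.1 CPM in the 12 libraries. Between Western diet postpartum and control diet nonpregnant hearts its 95% interval ran from -0.153 to 0.154 (log2), and over the 5 comparisons of a pair of groups its values lay between -0.05 and 0.05. Set against Ltbp3 per length, Ltbp1 gave ratios of 0.418, 0.494 and 0.461 in Western diet postpartum hearts. The ratios were 0.629, 0.645 and 0.576 in nonpregnant and 0.577, 0.612 and 0.496 in postpartum hearts on the control diet, and 0.638, 0.528 and 0.541 in Western diet nonpregnant hearts. The highest Western diet postpartum ratio was just under the lowest control diet postpartum one; this ratio was chosen after the values were seen and is given without a test.

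Endothelial markers also moved in this comparison: the 12 markers summed to 1452 to 1703 CPM in Western diet postpartum and 1327 to 1364 CPM in control diet nonpregnant hearts, 3 of 12 called higher and none at 0. The 12 fibroblast markers summed to 2396 to 2849 against 1986 to 2433 CPM with 1 called higher, and the 10 smooth muscle and pericyte markers to 1154 to 1348 against 1216 to 1326 CPM with none called. The 10 cardiomyocyte markers were lower, at 82860 to 83662 against 84169 to 94953 CPM without overlap, with 0 of 10 positive, 1 called lower and a list median of -0.15 (log2). Of the 6 lymphocyte markers tested 1 was positive (median -0.42, none called), and all 10 on that list summed to 3.21 to 3.55 against 3.36 to 5.25 CPM. The 12 macrophage and monocyte markers summed to 339.3 to 389.5 against 264.6 to 338.8 CPM. All 12 were positive, with 1 called higher and a list median of 0.36 (log2). The part of these cells in the Ltbp1 value was not tested.

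By the likeness rule, the 3 genes whose log2 CPM over the 12 libraries followed Ltbp1 most closely, of 12124 searched, were Ramp1, a receptor activity modifying protein that forms the receptor of the vasodilator peptide CGRP (Pearson r = 0.970, Spearman rho = 0.958), Mrgprh, an orphan receptor (r = 0.923, rho = 0.944), and Celsr1, a cadherin of planar cell polarity (r = 0.917, rho = 0.951). They were picked as the highest of many, so no p is given, and the points share library, depth and group. With the 2 libraries farthest from the median of Ltbp1 left out (control diet nonpregnant replicate 1 and Western diet postpartum replicate 1), r was 0.937, 0.891 and 0.893. Ramp1 stood at 6.71, 4.12 and 4.08 CPM in control diet nonpregnant and at 1.55, 1.97 and 2.10 CPM in Western diet postpartum hearts. The log2 differences between these groups were -1.42 for Ramp1, -0.63 for Mrgprh and -0.82 for Celsr1, against -0.43 for Ltbp1; they follow from the choice by likeness and are given as a description, with no test.

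Among the receptors, Tgfbr3 and Tgfbr2 lay in opposite directions after delivery, both short of the threshold. Tgfbr3, the coreceptor betaglycan (ENSMUSG00000029287, chr5:107106570-107289629, - strand), stood at 46.3, 53.0 and 55.4 CPM in control diet nonpregnant and at 42.0, 40.9 and 43.9 CPM in control diet postpartum hearts. In Western diet hearts it stood at 43.3, 54.2 and 49.0 CPM in nonpregnant and at 39.8, 46.2 and 40.7 CPM in postpartum hearts. The groups did not overlap on the control diet and did on the Western diet. The averaged postpartum effect was -0.25 (SE 0.06, 95% interval -0.385 to -0.112, adjusted p = 0.0651), from -0.28 on the control diet and -0.21 on the Western diet. It passed the threshold under 6 of 20 alternatives, among them leaving out control diet nonpregnant replicate 1 (adjusted p = 0.0288), Western diet postpartum replicate 2 (0.0301) or Western diet nonpregnant replicate 1 (0.0450). In these fits edgeR called 489, 567 and 151 of all genes, against 276 with all libraries. Over the 20 alternatives the adjusted p of Tgfbr3 ran from 0.00113 to 0.163. Without the library that held fat transcripts its averaged effect was -0.26 (adjusted p = 0.0983), in a fit that called 93 of all genes.

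Tgfbr2, the type II receptor that binds ligand (ENSMUSG00000032440, chr9:116084293-116175360, - strand), stood at 57.8, 59.8 and 57.0 CPM in Western diet nonpregnant and at 65.1, 71.4 and 71.2 CPM in Western diet postpartum hearts. On the control diet it stood at 57.9, 59.1 and 62.8 CPM in nonpregnant and at 61.7, 68.0 and 58.9 CPM in postpartum hearts. It was higher without overlap after delivery on the Western diet, while the groups overlapped on the control diet. The postpartum effect was 0.25 on the Western diet (SE 0.07, 95% interval 0.112 to 0.391, adjusted p = 0.1001), 0.07 on the control diet (SE 0.06, adjusted p = 0.724) and 0.16 averaged over diets (SE 0.05, adjusted p = 0.0928). DESeq2 called it on the Western diet (adjusted p = 0.0300) and in the averaged effect (0.0468). Its interaction of diet and delivery was 0.18 (SE 0.09, 95% interval -0.014 to 0.381, adjusted p = 0.578).

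Tgfbr1, the type I receptor kinase (ENSMUSG00000007613, chr4:47353222-47414931, + strand), lay at 17.2 to 20.3 CPM in the 12 libraries, with overlap in all 5 comparisons of a pair of groups. Its averaged postpartum effect had a 95% interval of -0.114 to 0.122 and its averaged diet effect one of -0.077 to 0.159. The ratio of Tgfbr3 to Tgfbr2 per length set these receptors apart: it was 1.00, 1.12 and 1.103 in control diet nonpregnant and 0.937, 1.13 and 1.08 in Western diet nonpregnant hearts. It was 0.851, 0.753 and 0.933 in control diet postpartum and 0.763, 0.808 and 0.715 in Western diet postpartum hearts. All 6 postpartum ratios lay below all 6 nonpregnant ones, the nearest pair (0.933 and 0.937) being almost equal. This ratio, too, was chosen after the values were seen and has no test.

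**Figure D4:**
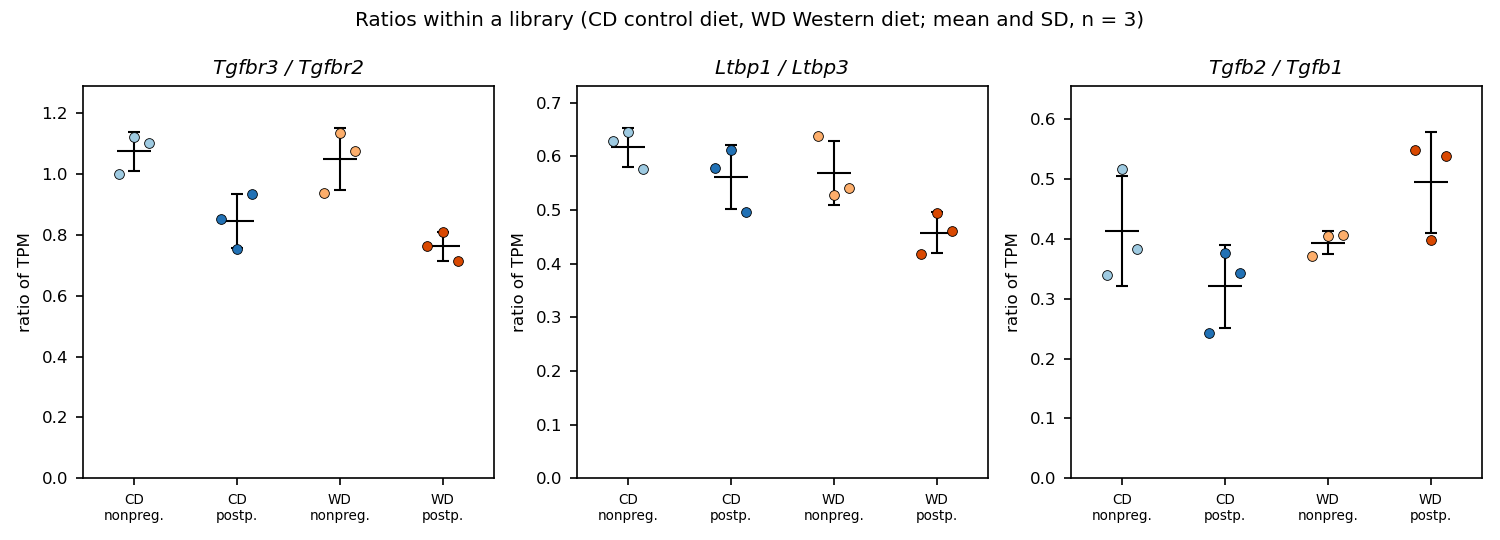
Ratios of TPM within each library (vertical axes, from 0) for Tgfbr3 to Tgfbr2, Ltbp1 to Ltbp3 and Tgfb2 to Tgfb1, by group (CD control diet, WD Western diet; points libraries, lines mean, bars SD, n = 3). Postpartum hearts have the lower Tgfbr3 to Tgfbr2 ratios, with means of 0.846 and 0.762 against 1.08 and 1.05, and Western diet postpartum hearts the lowest Ltbp1 to Ltbp3 ratios.

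The ratio of Tgfb2 to Tgfb1 was 0.548, 0.398 and 0.539 in Western diet postpartum hearts and 0.242, 0.376 and 0.343 in control diet postpartum hearts, without overlap. In nonpregnant hearts it was 0.340, 0.516 and 0.383 on the control diet and 0.371, 0.405 and 0.406 on the Western diet. Western diet postpartum replicate 2 was the one postpartum heart on that diet within the nonpregnant range.

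The Smads, which act after the receptors, showed no call. Smad3, which receptors phosphorylate (ENSMUSG00000032402, chr9:63646767-63757994, - strand), ranged from 17.6 to 21.8 CPM, with 20.3 ± 1.34 CPM (SD, n = 3) in nonpregnant hearts on the control diet and 18.6 ± 0.961 CPM in Western diet postpartum hearts. That difference of -0.12 had a 95% interval of -0.301 to 0.058 (adjusted p = 0.484). Smad7, the inhibitory Smad (ENSMUSG00000025880), stood at 23.8, 15.5 and 25.7 CPM in Western diet postpartum hearts, a group that holds both its highest and its lowest library. In the other 9 hearts it was between 16.4 and 22.02 CPM. Its postpartum effect on the Western diet, 0.20, had a 95% interval of -0.136 to 0.531 (adjusted p = 0.595), an interval that holds differences of either sign.

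Other genes of the pathway were read from 5 lists. These were chosen with earlier results of these data known, so their counts and medians beside all genes are a description and no test. Of 20 genes of latency and activation, all 20 tested, 3 rose in the postpartum effect averaged over diets and none fell, with a list median of 0.12 against -0.001 over all genes, of which 1.78% were called. Thbs1, thrombospondin 1, which can activate latent TGF-beta, stood at 5.602, 4.91 and 4.76 CPM in control diet nonpregnant and at 23.4, 10.4 and 9.96 CPM in control diet postpartum hearts. On the Western diet it stood at 4.21, 3.26 and 4.57 CPM in nonpregnant and at 17.3, 15.7 and 11.2 CPM in postpartum hearts. Every postpartum heart was well above every nonpregnant one, and the averaged effect was 1.70 (SE 0.21, adjusted p = 0.00519), called under all 20 alternatives.

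Emilin1, a matrix glycoprotein that holds back processing of the TGF-beta precursor, rose by 0.35 in the same effect (SE 0.06, adjusted p = 0.0187), and Itgb3, an integrin subunit, by 0.72 (SE 0.17, adjusted p = 0.0446). The Emilin1 call held under 15 of 20 and the Itgb3 call under 9 of 20 alternatives, ending when any 1 of 5 and any 1 of 10 libraries was left out, with adjusted p up to 0.0552 and 0.103. Itgb3 is also a subunit of the platelet fibrinogen receptor, and the platelet marker sums given above were higher after delivery too; their part was not tested. Thbs1 (1.88, SE 0.30, adjusted p = 0.0271) was the 1 call of the list after delivery on the Western diet, and there was none on the control diet, where Thbs1 was at 1.51 (adjusted p = 0.0528). In Western diet postpartum against control diet nonpregnant hearts Thbs1 (1.53, adjusted p = 0.0182) and Emilin1 (0.43, adjusted p = 0.0245) rose. The Thbs1 call there held under 18 of 21 alternatives and was lost without control diet nonpregnant replicate 2 or 3 or the first Western diet postpartum library (adjusted p of 0.0644 to 0.0794). The Emilin1 call held under 16 of 21 and was lost without any 1 of these 3 libraries or Western diet postpartum replicate 3 (0.0601 to 0.107) and in a fit of only the groups compared (0.0682). No gene of the list was called in the interaction or in the 3 comparisons of diets.

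Of the other receptors and coreceptors of the superfamily, 10 of 12 were tested and 1 was called, with list medians between -0.05 and 0.14 over the 8 comparisons. Eng, endoglin, an endothelial coreceptor, stood at 176.2, 179.3 and 179.0 CPM in nonpregnant hearts on the control diet and 170.3, 235.7 and 199.9 CPM in control diet postpartum hearts. In Western diet hearts it stood at 173.6, 169.2 and 199.2 CPM in nonpregnant and at 276.8, 218.1 and 279.7 CPM in postpartum hearts. The Western diet postpartum hearts lay above all nonpregnant ones, and Eng rose by 0.54 over control diet nonpregnant hearts (SE 0.11, adjusted p = 0.0280) and by 0.35 in the averaged postpartum effect (SE 0.08, adjusted p = 0.0457). The first call held under 16 of 21 alternatives and was lost without Western diet postpartum replicate 1 or 3 or control diet nonpregnant replicate 2 or 3 (adjusted p of 0.0795 to 0.119), and the second held under 9 of 20, being lost without any 1 of 9 libraries (0.0570 to 0.122). Eng is itself one of the endothelial markers whose sum was higher in these hearts. Of 22 other Smads and regulators, all tested, none was called in any comparison, and the list medians lay between -0.03 and 0.03. Smad6, an inhibitory Smad, had a value of 0.60 in Western diet postpartum against control diet nonpregnant hearts (SE 0.16, adjusted p = 0.0558).

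Of 28 genes that TGF-beta is known to induce, 27 were tested, and 7 were called higher and none lower in the averaged postpartum effect, with a list median of 0.37 against -0.001 over all genes, of which 1.78% were called. Of the 27 values 19 were positive. Tnc, the matricellular protein tenascin C, stood at 0.964, 1.39 and 1.27 CPM in nonpregnant hearts on the control diet and 2.59, 2.91 and 4.67 CPM in control diet postpartum hearts. On the Western diet it stood at 1.12, 1.21 and 1.06 CPM in nonpregnant and at 2.49, 4.55 and 3.77 CPM in postpartum hearts. All 6 postpartum hearts were above all 6 nonpregnant ones. Tnc rose by 1.59 (SE 0.20, adjusted p = 0.00519), fibronectin Fn1 by 0.46 (SE 0.08, adjusted p = 0.0177) and periostin Postn by 0.59 (SE 0.12, adjusted p = 0.0306). The collagen chains Col5a1 (0.40, adjusted p = 0.0312), Col1a2 (0.43, adjusted p = 0.0413) and Col1a1 (0.48, adjusted p = 0.0417) rose too, as did Thbs1, which both lists hold; Col1a1, with the largest p of the 7, lies past the limit of 6 named genes and was added after its value was seen.

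Tnc and Thbs1 held under all 20 alternatives in that effect and Fn1 under 19, being lost without Western diet postpartum replicate 1 (adjusted p = 0.0504). Postn held under 11, Col5a1 under 12, Col1a2 under 9 and Col1a1 under 10, being lost without any 1 of 8, 8, 10 and 9 libraries, with adjusted p up to 0.0875, 0.0876, 0.0960 and 0.0930. With edgeR's robust option Postn, Col1a2 and Col1a1 were lost too (adjusted p = 0.0693, 0.0688 and 0.0847). Without the library that held fat transcripts the averaged calls of Emilin1, Itgb3, Eng, Postn, Col5a1, Col1a2 and Col1a1 were lost, with adjusted p of 0.0506 to 0.0930. Calls over all genes fell in that fit too, from 276 to 93, and the part of fat tissue in these losses was not tested. By diet, Col1a1 (0.86), Tnc (1.501), Col1a2 (0.75) and Col5a1 (0.63) rose after delivery on the control diet, with adjusted p of 0.0409, 0.0436, 0.0436 and 0.0485, and Thbs1 and Tnc (1.67, adjusted p = 0.0271) on the Western diet. Of these the control diet calls held under 12, 9, 10 and 9 of 21 alternatives. They were lost without any 1 of 7, 9, 9 and 8 libraries. Without the one that held fat transcripts their adjusted p was 0.160, 0.160, 0.169 and 0.194. After delivery on this diet edgeR called 37 of all genes with all libraries. It called 0 or 1 when postpartum replicate 1 or 3, or nonpregnant replicate 2 or 3, of this diet was left out. Other single libraries whose removal lost a call gave 9 to 31, except the first nonpregnant one on this diet. Its removal gave 205, and of these calls only Tnc was lost (adjusted p = 0.0546). The Western diet calls held under 15 (Thbs1) and 17 (Tnc) of 21 and were lost without any 1 of the 3 Western diet nonpregnant libraries or without Western diet postpartum replicate 3, the Thbs1 call also without replicate 1, with adjusted p of 0.0771 to 0.103. In each fit that lost both calls edgeR called 0 of all genes in that comparison, against 91 with all libraries. It called 7 without Western diet postpartum replicate 1. On the Western diet Col1a1 was at 0.11 (adjusted p = 0.798), and its interaction was -0.75 (SE 0.22, adjusted p = 0.394), so a difference between the diets was not called. In the 3 comparisons of diets none of the 27 was called.

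Some other genes of this list that respond directly to Smads did not pass in the averaged effect: Skil, a Smad corepressor, was at -0.05 (adjusted p = 0.726) and Pmepa1, a feedback inhibitor, at -0.09 (adjusted p = 0.449). These were named after the values were seen. The fibroblast markers, among them Col1a1 and Col1a2 of this list, summed to 2555 to 2704 CPM in control diet postpartum against 1986 to 2433 CPM in control diet nonpregnant hearts, and to 2396 to 2849 against 2393 to 2679 CPM on the Western diet. Their part in the collagen values was not tested.

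**Figure D5:**
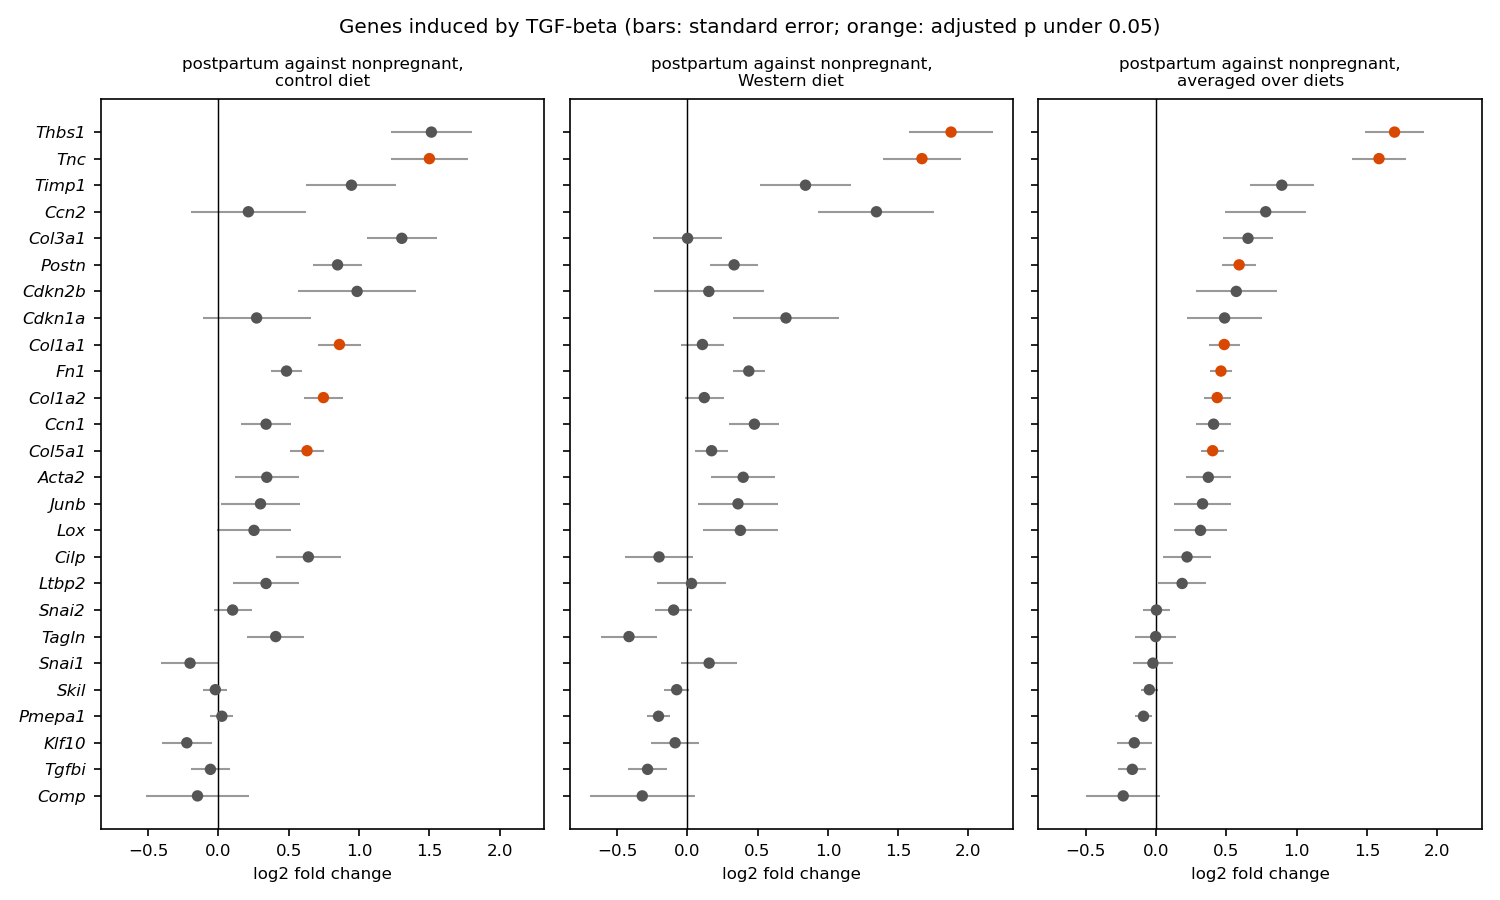
Log2 fold change after delivery (horizontal axis) of tested genes known to be induced by TGF-beta (vertical axis), on each diet and averaged over diets; bars are standard errors and orange marks an adjusted p under 0.05. Thbs1 and Tnc lead in the averaged effect, at 1.70 and 1.59, and Col1a1, Col1a2, Col5a1 and Tnc are orange on the control diet.

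Of 22 other ligands and soluble inhibitors of the superfamily, 16 were tested, with a list median of 0.08 in the averaged postpartum effect. Fstl1, a secreted follistatin-like glycoprotein, rose after delivery on the control diet (0.55, SE 0.10, adjusted p = 0.0364) and in the averaged effect (0.43, SE 0.07, adjusted p = 0.0121), the latter under all 20 alternatives. The control diet call held under 12 of 21 and was lost without any 1 of 8 libraries, the one that held fat transcripts among them (adjusted p = 0.119), with adjusted p of 0.0542 to 0.182, and in a fit of only the groups compared (0.0994). With any 1 of those 8 libraries left out edgeR called 0 to 55 of all genes there, against 37 with all libraries. Fstl1 stood at 84.0, 90.7 and 68.7 CPM in nonpregnant hearts on the control diet and 124, 119.2 and 113.3 CPM in control diet postpartum hearts, without overlap. Bmp4, a bone morphogenetic protein, fell in the averaged effect by 0.33 (SE 0.07, adjusted p = 0.0360), a call that held under 9 of 20 alternatives and was lost without any 1 of 10 libraries (adjusted p of 0.0543 to 0.103, and 0.0700 without the fat-bearing one).

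Bmp6, a relative that endothelial cells make and that regulates iron, was the only gene of the 5 lists called between diets. It stood at 33.1, 29.2 and 36.9 CPM in Western diet postpartum and at 22.5, 25.5 and 21.6 CPM in control diet postpartum hearts, without overlap. It rose by 0.51 there (SE 0.09, adjusted p = 0.0198) and by 0.34 in the averaged diet effect (SE 0.07, adjusted p = 0.0230). The first call held under 15 of 21 alternatives, being lost without replicate 1 or 3 of either postpartum group (adjusted p of 0.0627 to 0.124, and 0.0866 without the library that held fat transcripts), and in a fit of only the groups compared (0.0616). The second held under 12 of 20, being lost without any 1 of 7 libraries (0.0526 to 0.0734). The endothelial marker sums of postpartum hearts were 1452 to 1703 CPM on the Western and 1410 to 1445 CPM on the control diet, and their part in the Bmp6 values was not tested.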

How the data were processed

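The authors aligned reads with STAR 2.5.2b to GRCm38 (mm10) and counted them with featureCounts of Subread 1.5.2, per the submitters' processing notes; the deposited values are raw counts per gene. No source used here gives the strand setting or annotation release. Genes without a symbol (345) took 0.0218% to 0.0248% of counts. TPM was computed from counts and exonic lengths in the files. All 12 libraries entered one edgeR 4.0.16 quasi-likelihood model (R 4.3.3; TMM; minimum count 10, minimum total 15; common biological coefficient of variation 9.624%; two-sided F test; Benjamini-Hochberg adjustment over 15476 genes, threshold 0.05). Standard errors come from F, and 95% intervals from its degrees of freedom. Alternatives were DESeq2 1.42.0, limma-voom 3.58.1, other scalings and filters, edgeR's robust option, pairwise fits and libraries left out. On simulated data for postpartum against nonpregnant hearts on the Western diet (15305 genes tested), edgeR recovered 31 of 67 genes changed 1.5-fold, 52 of 67 changed 2-fold and 61 of 66 changed 4-fold, with 7 calls among 15276 unchanged. 2 genes that stayed in all tests and counts are not reported here. The members and lists were chosen with earlier results of these data known. Named are the 10 members, up to 6 called genes per list and comparison (2 where none passed; those bearing on the members are printed), and the 3 genes most like a called member at a mean of 1 CPM or more.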

Additional observations from a re-analysis of the deposited data

How the results depend on the processing

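No paired analysis was possible because the labels give no replicate numbers shared between groups. The Ltbp1 call kept its direction, and no called value of the 10 genes or the 5 lists changed sign, under the alternatives run (other size factors, no filter, a filter of 1 CPM in 3 libraries, the robust option, library sizes without mitochondrial genes, pairwise fits, DESeq2, limma-voom, each library left out, and control diet postpartum replicate 3 left out together with control diet nonpregnant replicate 1). Over single genes and settings, 1607 values of the 10 genes stayed on their side of the threshold, 28 passed it and 9 no longer did; for called list genes 345 stayed and 167 no longer passed. Without the filter on low counts, the number of the 10 genes called was 2 after delivery on the control diet, 2 on the Western diet, 2 between diets postpartum, 3 in Western diet postpartum against control diet nonpregnant hearts, 1 in the interaction (Tgfb2), 3 in the averaged postpartum effect and 1 in the averaged diet effect (Ltbp1). That setting also called 506 of all genes in the interaction against 0 with the filter, and 454 to 1315 in the other comparisons against 9 to 406; DESeq2 called 95 to 779 there. The cause was not tested. DESeq2 called 1 of the 10 after delivery on the Western diet (Tgfbr2) and 3 in the averaged postpartum effect (Tgfb1, Tgfbr2, Tgfbr3), and the robust option 1 there (Tgfb1). The pairwise fit called 0 in Western diet postpartum against control diet nonpregnant hearts. With libraries left out the number called ranged from 0 to 1 after delivery on the control diet (Tgfb1 without control diet nonpregnant replicate 1, adjusted p = 0.0323), 0 to 1 after delivery on the Western diet and 0 to 1 between diets postpartum (Tgfb2 without Western diet postpartum replicate 2), 0 to 1 in Western diet postpartum against control diet nonpregnant hearts, and 0 to 2 in the averaged postpartum effect (Tgfb1 and Tgfbr3 without control diet nonpregnant replicate 1). Calls over all genes rose too, in the comparisons given next, without control diet nonpregnant replicate 1 or Western diet postpartum replicate 2. Without control diet nonpregnant replicate 1 they numbered 205 on the control diet against 37, and 489 in the averaged postpartum effect against 276. Without Western diet postpartum replicate 2 they numbered 472 after delivery on the Western diet against 91, and 490 between diets postpartum against 136. Without other libraries they could fall, so a lost call is to be read beside them. With any 1 library left out they ran from 0 to 205 on the control diet, 0 to 472 on the Western diet and 33 to 490 between diets postpartum. In Western diet postpartum against control diet nonpregnant hearts they ran from 87 to 764 (406 with all libraries), and in the averaged postpartum effect from 52 to 567. The 10 genes each had at least 212 counts per library, and with 3 libraries a group small changes can be missed: in simulation 31 of 67 genes changed 1.5-fold were recovered.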
